A study of Rattus norvegicus with 3 samples.

Results

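The genes that separated adult from newborn tendon stem/progenitor cells (TSPCs) were described by setting the array of cells from 56-day-old rats (TSPCs-56d) against the array of cells from 1-day-old rats (TSPCs-1d). TSPCs are colony-forming cells that grow out of tendon tissue and can form several mesenchymal tissues. All cultures came from the Achilles tendon of the rat (*Rattus norvegicus*; the tendons examined in the study were of Sprague-Dawley rats), were untreated, carried no genetic change, and were grown in low glucose DMEM with fetal bovine serum and penicillin-streptomycin. The methods describe them as polyclonal, grown from the mixed tissue of at least 2 animals per age and used at passage 2. These were 2 of the 3 arrays of the series, 1 array per age, and the array of 7-day-old rats (TSPCs-7d) is given beside them. All 14217 genes with a named probe set were measured on both arrays.

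A tendon is built from parallel fibrils of type I collagen. Small leucine-rich proteoglycans such as decorin and lumican bind these fibrils and govern how thick they become, and glycoproteins such as tenascin C and the thrombospondins link fibrils and cells. In the newborn the tissue is rich in cells that divide and lay down matrix. In the adult few cells divide, the fibrils are thick, and the cells mainly keep the matrix in repair. The cells compared here had left the tendon and had been expanded on plastic, so what was compared is the RNA of cultured cells and not of tendon tissue.

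By a cutoff of 2-fold, 284 genes (2.0%) were higher in TSPCs-56d and 251 (1.77%) were lower. The signals are array intensities on a linear scale, and a gene was taken by its brightest probe set (the group of probes made for a transcript). Signals below 48.9, the 25th percentile of all signals, are called dim, and a fold change against a dim signal is given as "at least", with that signal raised to 48.9. Of the genes higher in TSPCs-56d, 52 were dim in TSPCs-1d and 21 were dim in both arrays, and of the genes lower, 57 were dim in TSPCs-56d and 32 in both. With dim signals raised, 97 genes were at least 3-fold higher in TSPCs-56d and 71 at least 3-fold higher in TSPCs-1d, and 6 and 5 genes respectively were at least 10-fold apart. When each array was divided by its median signal (107 in TSPCs-1d and 114 in TSPCs-56d), 233 genes were higher and 303 lower. Which age had more genes thus depended on the scaling. Over all probe sets in place of genes, 473 were higher and 558 lower. For the same pair, the paper's supplement also lists more genes down than up in TSPCs-56d. The paper's text counts transcripts past 2-fold, whereas 1 probe set per gene was counted here. With 1 array per age no difference could be checked in replicates, and p-values are not given. The paper also measured *Alx1*, *Dcn* and *Lum* by quantitative PCR and reports that this bore out the array. Those measurements were not used here. As a guide to the noise within an array pair, both log2 ratios of 1719 genes with 2 bright probe sets differed by 0.17 at the median, and 90% of them by less than 0.53. This covers probe noise and not the difference between animals or cultures. The cutoff falls within a continuous range of ratios: *Ctsh*, at 2.01-fold, lay just inside and *Pla1a*, at 1.99-fold, just outside on the adult side, and *Ppp1r14c* and *Cxcr4*, at 2.00 and 1.99, on the newborn side.

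**Figure D1:**
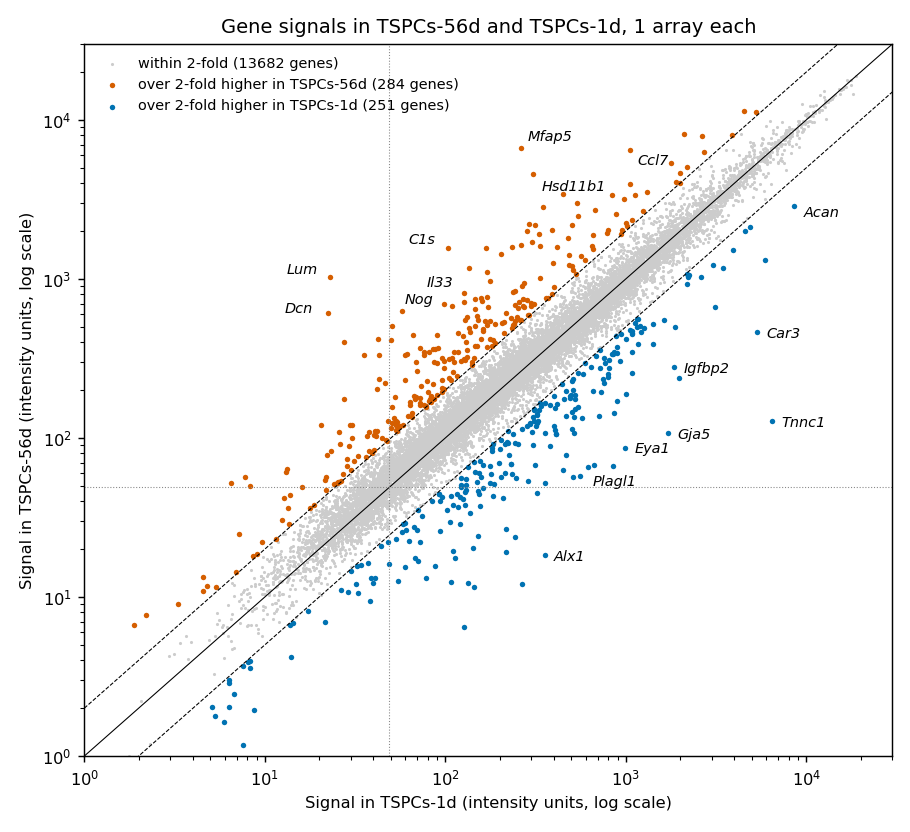
Each point is a gene, with its signal in TSPCs-1d on the x axis and in TSPCs-56d on the y axis, in intensity units on log scales; dashed lines mark 2-fold and dotted lines the dim level of 48.9. The 284 genes higher in TSPCs-56d (orange) and 251 genes higher in TSPCs-1d (blue) lie on the edges of a narrow band that holds the other 13682 genes, with *Lum*, *Dcn* and *Mfap5* far out on the adult side and *Tnnc1* on the newborn side.

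The labelled cell type was checked against its markers. *Scx*, the transcription factor of the tendon lineage, had signals of 2255, 2578 and 2569 on the arrays of the 1-day, 7-day and 56-day cells, the order used for every gene here (where 2 values are given, they are those of TSPCs-1d and TSPCs-56d). The mesenchymal surface markers *Cd44* (1385, 1293 and 1331), *Itgb1* (9072, 8999.8 and 9797) and *Thy1* (5077, 5379.6 and 7201) were bright at every age, and the leukocyte antigen *Ptprc* was dim at every age (20.8 in TSPCs-1d and 30.6 in TSPCs-56d). *Comp*, a glycoprotein of mature tendon, was dim in TSPCs-1d (35.8) and TSPCs-56d (40.7) and read 68.8 in TSPCs-7d. The tendon markers split: of 14 measured tendon factors and markers, 2 were higher and 2 lower in TSPCs-56d. By values given below, *Tnc* and *Thbs4* were past 2-fold higher in TSPCs-56d and *Tnmd* past 2-fold lower. Of markers of other cell types, none of 10 skeletal muscle, 10 endothelial, 12 leukocyte, 9 Schwann cell and 11 epithelial genes passed 2-fold, and 1 of 12 pericyte genes did (*Mcam*, below). Their summed signals in TSPCs-1d and TSPCs-56d were 594 and 659.5 for muscle, 911 and 1086 for endothelium, 1038 and 1261 for leukocytes, 4452 and 6415 for Schwann cells, 577 and 725 for epithelium and 5032 and 3637 for pericytes. All 9 Schwann cell genes had the higher signal in TSPCs-56d, also after division by the array medians, with a median log2 ratio of 0.47, and their part in the other differences was not tested. No marker was at 0. The muscle list leaves out bright muscle genes that passed 2-fold, such as *Tnnc1* and *Casq2* (lower in TSPCs-56d) and *Acta1* (higher), described below. The defining genes *Myod1* (23.6 and 32.5), *Pecam1* (23.3 and 22.9) and *Epcam* (23.4 and 34.3) were dim in both arrays, whereas the Schwann cell marker *S100b* read 529.8 and 1000.4. In such bulk RNA, fewer cells of a type cannot be told apart from less RNA per cell.

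Among the genes with the largest ratios toward TSPCs-56d were *Mfap5*, *Lum* and *Dcn*, which encode matrix proteins. *Mfap5*, which encodes a microfibril-associated glycoprotein that binds fibrillin, gave 262 in the youngest cells, 1205 at 7 days and 6668 in TSPCs-56d, a 25.4-fold difference between the youngest and oldest cells and the largest in that direction among genes above the dim level on both arrays. *Lum*, which encodes lumican, was dim in TSPCs-1d (22.9) and TSPCs-7d (22.4) and reached 1021 in TSPCs-56d, at least 20.9-fold higher. *Dcn*, which encodes decorin, the main proteoglycan of tendon, read 22.4, 49.4 and 607 in the order of age, at least 12.4-fold higher in TSPCs-56d. *Prelp*, a member of the same family that anchors basement membranes to connective tissue, read 60.0, 102 and 333 and was 5.55-fold higher. So 3 of the 14 measured small leucine-rich proteoglycans passed 2-fold upward and none downward, and their median log2 ratio was 0.40 against 0.06 over all genes. The others were not all alike, since *Bgn* (biglycan) was bright at both ages (7328 and 9759.7), *Fmod* (fibromodulin) read 271 and 408 with 774 in TSPCs-7d, and *Ogn* (osteoglycin) was lower in TSPCs-56d (2069 and 1369).

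The sequences before the starts of 2 of the genes with the largest adult excess are given for reference from RefSeq (assembly GRCr8), 250 bases each, read 5′ to 3′ on the gene's strand up to the base before its start. They lie at chr7:34245456-34245705 (plus strand) for *Lum* and chr4:157399669-157399918 (plus strand) for *Mfap5*. The TATA box (TATAAA), a core promoter element bound by the general transcription machinery, was searched on both strands, together with the E-box CAGCTG, bound by myogenic helix-loop-helix factors, and the CArG box, bound by serum response factor. None of these was found in either of them, which says only that those letters are not in the window searched. The capitals used further below for other genes mark such motifs.
Lum: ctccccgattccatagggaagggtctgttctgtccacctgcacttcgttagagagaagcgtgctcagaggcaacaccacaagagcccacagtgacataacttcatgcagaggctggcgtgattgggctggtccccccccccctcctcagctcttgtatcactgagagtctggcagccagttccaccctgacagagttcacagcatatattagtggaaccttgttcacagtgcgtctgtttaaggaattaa
Mfap5: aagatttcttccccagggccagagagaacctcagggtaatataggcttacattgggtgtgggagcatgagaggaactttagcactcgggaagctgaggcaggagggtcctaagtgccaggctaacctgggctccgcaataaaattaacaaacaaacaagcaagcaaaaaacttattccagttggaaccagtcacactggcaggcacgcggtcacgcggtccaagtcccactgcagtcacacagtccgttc

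The glycoproteins that bind fibrils and cells had 9 of 34 measured genes higher in TSPCs-56d and 1 lower, with a median log2 ratio of 0.21. Over all genes 2.0% were higher and 1.77% lower. In the list, 25 genes (73.5%) had the higher signal in TSPCs-56d, against 57.9% of all genes. The tenascin genes *Tnc* (5280.4, 7302 and 11185) and *Tnn* (975, 1378 and 3182) were 2.12-fold and 3.26-fold higher, with TSPCs-7d in between. *Thbs2*, a thrombospondin that takes part in collagen fibril assembly, read 285, 741 and 1991 (6.99-fold), and *Thbs4*, an abundant thrombospondin of tendon, read 76.5, 339.6 and 348 (4.55-fold). Among the CCN proteins, secreted modulators of growth factor and integrin signals, *Ccn5* read 449.9, 2060.3 and 3406 (7.57-fold) and *Ccn3* 796, 314 and 2020.3 (2.54-fold). *Itgbl1*, an integrin beta-like protein, read 57.5, 434 and 626 (10.9-fold), and *Fndc1*, a fibronectin domain protein, 546, 319.8 and 2495 (4.57-fold). The ninth, *Matn2*, was barely above the dim level at 52.8 in TSPCs-56d, and the single gene lower was *Edil3*, an integrin ligand, dim in TSPCs-56d (144, 34.0 and 11.5, at least 2.95-fold). *Thbs4* and *Itgbl1* had already reached most of the adult signal in TSPCs-7d, whereas *Fndc1* and *Ccn3* were lowest there.

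Fibril-forming collagens did not differ in this way. None of the 11 measured genes passed 2-fold and their median log2 ratio was 0.02. *Col1a1* (14491 and 14286), *Col1a2* (18751 and 18760.3) and *Col3a1* (15320.1 and 15491) differed by at most 1.01-fold between TSPCs-1d and TSPCs-56d, at signals close to the highest on the arrays (19315), and whether the scale is linear there was not tested. Of the 30 other collagens, *Col15a1*, a basement membrane collagen, was 5.64-fold higher in TSPCs-56d (535, 1331 and 3020.3), with 574, 1395 and 2778 in its other probe set, and *Col8a1* was 2.06-fold higher (3888, 4068 and 8027). *Col4a5*, *Col19a1* and *Col25a1* were lower, of which only *Col4a5*, a type IV collagen chain, was bright in both arrays (2246, 1809.7 and 1063, 2.11-fold). Of 20 measured genes for collagen processing, *PCOLCE2*, which enhances the cleavage of procollagen, read 51.0, 462 and 503 (9.87-fold), and *P4ha2*, a collagen prolyl hydroxylase subunit, 1240.4, 996 and 2657 (2.14-fold), although the latter's other probe set gave 329.65 and 397. The cross-linking enzyme *Lox* read 8155, 10020.2 and 8776.

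Of 40 matrix-degrading enzymes and their inhibitors, 4 were higher in TSPCs-56d, 1 was lower and dim there, and 24 (60.0%) had the higher signal in TSPCs-56d, close to the 57.9% of all genes. *Mmp3* (stromelysin 1) read 332, 1930.1 and 1926, so its 5.80-fold difference was complete by TSPCs-7d. *Timp3*, a matrix-bound inhibitor of metalloproteinases, read 656, 483 and 1550.3 (2.36-fold), *Mmp9* 111, 205 and 258 (2.33-fold) and *Adamtsl1* 269, 557 and 673 (2.51-fold). Of 15 serpins, 3 were higher and 2 lower in TSPCs-56d, and 7 were dim in both arrays. With dim signals raised, 2 were higher and 1 lower. The higher signal was in TSPCs-56d for 8 of them (53.3%), below the 57.9% of all genes. *Serpinf1*, which encodes pigment epithelium-derived factor, was bright throughout and 3.02-fold higher (2638, 3826 and 7964), and *Serpini1*, a neuronal serpin (neuroserpin), was at least 2.63-fold lower (128, 82.2 and 45.8).

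In the hyaluronan and aggrecan system, 3 of 18 genes were lower in TSPCs-56d and none was higher by 2-fold. The list as a whole was not lower, since 12 of its genes had the higher signal in TSPCs-56d (66.7%, against 57.9% of all genes) and its median log2 ratio was 0.08. *Acan*, which encodes aggrecan, the large water-holding proteoglycan of cartilage and of compressed tendon, was among the brightest genes of the newborn cells at 8588 and was 2.99-fold lower in TSPCs-56d at 2874, with 8224 in TSPCs-7d. *Hapln1*, the link protein that ties aggrecan to hyaluronan, read 399.8, 428 and 119.8 (3.34-fold), and both genes were nearly level between TSPCs-1d and TSPCs-7d. *Tnfaip6*, which encodes a hyaluronan-binding protein (TSG-6), already differed between them, at 3128, 1435 and 666 (4.69-fold), and its other probe set gave 484, 194 and 84.6. *Has2* (hyaluronan synthase, 339.6 and 477) and *Vcan* (versican, 1071 and 1967) were not lower in TSPCs-56d. Among 21 elastic fibre genes, the microfibril genes split: *Fbn2*, the fibrillin of early development, was 4.26-fold higher in TSPCs-1d (381, 216 and 89.5) and *Mfap4* 2.30-fold higher (321, 393 and 139), whereas *Mfap5* above and *Fbln2* (fibulin 2; 2108, 5953 and 8204, 3.89-fold) were higher in TSPCs-56d and *Fbn1* was bright at both ages (4347 and 5263). *Tnmd*, which encodes the tendon membrane protein tenomodulin, read 543, 351 and 158 and was 3.44-fold higher in TSPCs-1d. *Eya1*, a phosphatase and cofactor of homeobox transcription factors, read 993, 814 and 87.0 and was 11.4-fold higher in TSPCs-1d.

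**Figure D2:**
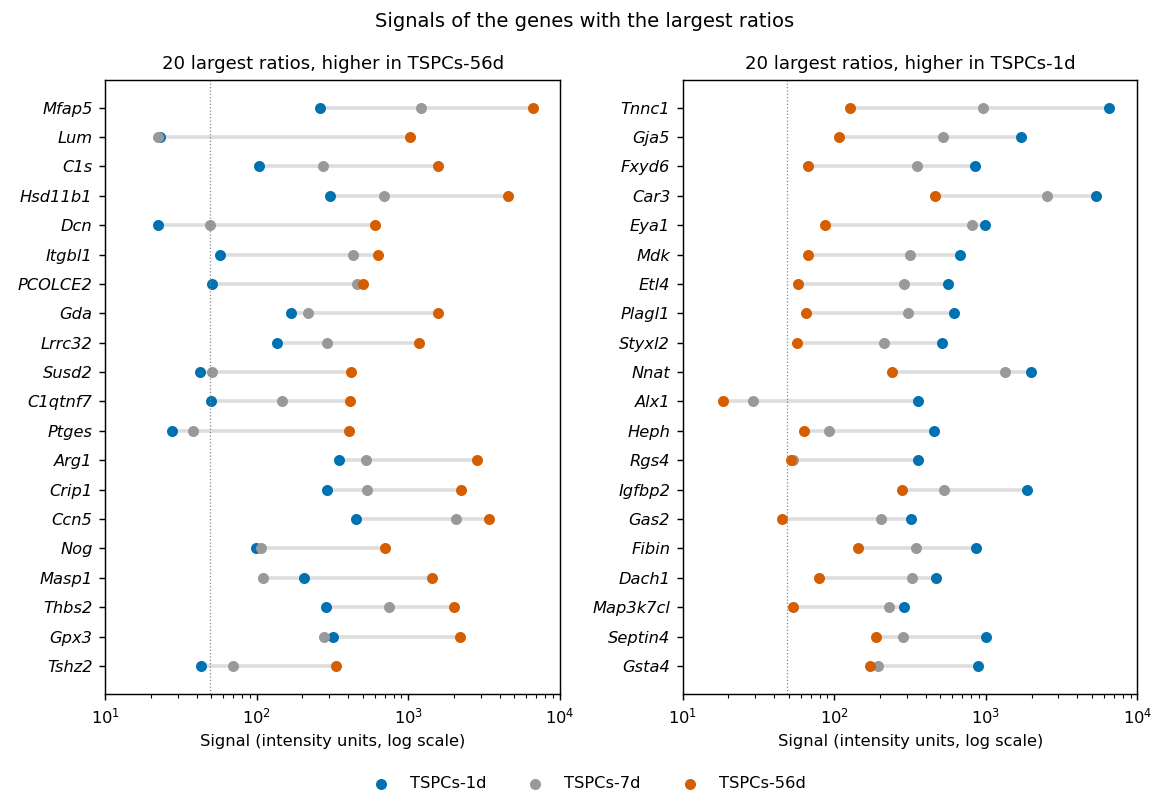
Signals in intensity units on a log scale for the 20 genes with the largest ratios in each direction, with 1 point per array (blue TSPCs-1d, grey TSPCs-7d, orange TSPCs-56d) and a dotted line at the dim level of 48.9. *Lum*, *Dcn*, *Susd2*, *Ptges* and *Tshz2* are under the dim level in TSPCs-1d and *Alx1* and *Gas2* in TSPCs-56d, and most grey points lie between the other points.

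Genes of the contractile apparatus held the largest difference between the arrays. *Tnnc1*, the calcium-binding troponin C of slow and cardiac muscle, gave 6489 in newborn cells, 951 at 7 days and 127 in TSPCs-56d, 51.0-fold apart between the youngest and oldest cells. *Pln*, which encodes phospholamban, the brake of the calcium pump of cardiac and smooth muscle, read 5884, 2729 and 1321 (4.45-fold), and its other probe sets gave 233, 106 and 54.3, and 4244, 1749.9 and 871. *Casq2*, a calcium store protein, read 4877, 3409.8 and 2117 (2.30-fold), and *Myom1*, a protein of the sarcomere's M band, 404, 155 and 155 (2.61-fold). *Myh6* and *Smpx* were also lower in TSPCs-56d but dim there. In all, 6 of 53 sarcomere genes were lower and 1 was higher, against 1.77% and 2.0% of all genes. Yet the median log2 ratio of the list was 0.04, so the difference lay in a few of its genes. Of the 8 measured troponin genes, *Tnnc1* alone passed 2-fold. *Tnnt2* read 44.4 and 56.9 and *Tnni1* 92.4 and 123 in TSPCs-1d and TSPCs-56d, and *Tnnc2* (34.2 and 26.2) and *Tnnt1* (43.4 and 40.1) were dim in both arrays.

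The exception was *Acta1*, skeletal muscle alpha-actin, which read 1772, 855 and 5327 and was 3.01-fold higher in TSPCs-56d. Smooth muscle myosin *Myh11* ran with it at 2186, 1671 and 5067 (2.32-fold), whereas *Acta2*, smooth muscle alpha-actin, was level at 9048, 7419 and 9316. Among the smooth muscle and contractile genes, 1 of 39 was higher and 2 were lower, *Pdlim3* (492, 129 and 184, 2.67-fold) and *Mcam*, a surface marker of pericytes (2182, 930.0 and 927, 2.35-fold). The transcription factors *Mef2a* (3032, 1719.8 and 1222, 2.48-fold) and *Mef2c* (642, 563 and 278, 2.31-fold), which act with myogenic factors, were lower in TSPCs-56d, and the other 3 probe sets of *Mef2a* also had log2 ratios between -1.36 and -1.56. *Gja5*, the gap junction protein connexin 40 of cardiac conduction and arterial cells, read 1715, 522 and 107 and was 16-fold higher in TSPCs-1d, whereas *Gja1*, the main connexin of fibroblasts, was bright at both ages (4483 and 5635). *Car3*, the carbonic anhydrase of slow muscle and fat, read 5356, 2536 and 463 (11.6-fold), and 755, 321 and 159 in its other probe set. The muscle isoform of a cytochrome oxidase subunit, *Cox6a2*, read 854, 459.7 and 338 (2.53-fold).

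The 250 bases before the starts of *Gja5* and *Acta1*, 2 genes of muscle cells that differed in opposite directions, are printed with the motifs in capitals. They lie in GRCr8 at chr2:187290977-187291226 (plus strand) and chr19:68784195-68784444 (minus strand). *Acta1* holds a TATA box at -29, a CArG box at -94 and an E-box at -237, counted to the first base of the motif with -1 as the base before the start, and *Gja5* holds a TATA box on the opposite strand at -178. No motif overlapped another. Promoters of *Dcn* and *Tnnc1* are named only.
Gja5: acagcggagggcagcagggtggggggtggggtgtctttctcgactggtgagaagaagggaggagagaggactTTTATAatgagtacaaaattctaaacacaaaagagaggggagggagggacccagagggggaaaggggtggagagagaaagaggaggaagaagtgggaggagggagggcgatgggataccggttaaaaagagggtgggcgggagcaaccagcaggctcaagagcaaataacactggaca
Acta1: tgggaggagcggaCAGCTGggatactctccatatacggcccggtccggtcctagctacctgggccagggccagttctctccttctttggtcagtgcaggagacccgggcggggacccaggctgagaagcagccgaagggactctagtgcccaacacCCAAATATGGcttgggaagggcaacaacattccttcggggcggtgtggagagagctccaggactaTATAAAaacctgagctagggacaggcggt

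Over windows of 300 bases (250 before and 50 after the start) of 11700 genes, a TATA box lay on either strand in 8.45%. The share was 9.27% of the 205 genes higher in TSPCs-56d with a sequence and 15.4% of the 188 genes lower. The E-box was in 16.6% of all windows, 16.1% of those of genes higher and 16.5% of those of genes lower, and the CArG box in 1.35%, 1.46% and 1.06%. The median GC content was 60.0% over all windows, 57.3% for genes higher and 57.0% for genes lower. These shares are descriptions, and a match of letters is not a binding site.

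Regulators of fetal growth were the list with the lowest median. Of 13 measured genes, 5 were lower in TSPCs-56d (1 of them dim in both arrays), none was higher, and the median log2 ratio was -0.31. Over all genes 1.77% were lower and 2.0% higher. In the list, 3 genes (23.1%) had the higher signal in TSPCs-56d, against 57.9% of all genes. All 3 IGF2 mRNA-binding proteins, fetal proteins that bind growth-related messenger RNAs, were lower: *Igf2bp1* read 117, 72.4 and 36.9 (at least 2.39-fold), *Igf2bp2* 928, 580.2 and 303 (3.06-fold) and *Igf2bp3* 519, 317 and 107 (4.86-fold). Each was lower at each later age. Of the other probe sets, 1 of *Igf2bp3* gave 231, 175 and 72.5, another was level (233, 225 and 246), and that of *Igf2bp2* gave 222, 190.0 and 160.2. *Mdk*, which encodes midkine, a heparin-binding growth factor of the embryo, read 670.1, 317 and 67.3 (9.95-fold). *Hmga2*, a chromatin protein of fetal cells, read 336, 234 and 271.

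Among 29 imprinted genes, *Plagl1*, a zinc finger factor, read 615, 305 and 65.3 (9.42-fold), *Nnat* (neuronatin) 1970.5, 1339 and 239 (8.23-fold), and *Mest*, which is expressed in fetal mesoderm, 178, 150.4 and 51.8 (3.43-fold), all higher in TSPCs-1d. The best known members were not lower in TSPCs-56d: *Igf2*, the fetal insulin-like growth factor, read 188, 194 and 240.0, *H19* 243, 301 and 353, *Meg3* 369.6, 326 and 366 and *Dlk1* 86.9, 73.8 and 80.0. *Slc22a18* was higher (126, 172 and 435, 3.46-fold), as was *Dcn* above, which is imprinted in the mouse placenta. The list's median log2 ratio was -0.02. In the insulin-like growth factor system, binding proteins exchanged places. *Igfbp2* read 1854, 528 and 278 (6.67-fold higher in TSPCs-1d), whereas *Igfbp3* read 505, 644 and 2180.2 (4.32-fold higher in TSPCs-56d) and *Igfbp6*, which prefers IGF2, 564, 1259.6 and 1397 (2.47-fold). The other probe sets of *Igfbp3* (289, 387 and 1377) and *Igfbp6* (195, 391 and 426) ran the same way. *Igfbp7* (6007 and 9087) and *Igf1r*, the receptor (1127 and 1158), stayed within 2-fold, and *Igf1* read 153, 328 and 284.

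**Figure D3:**
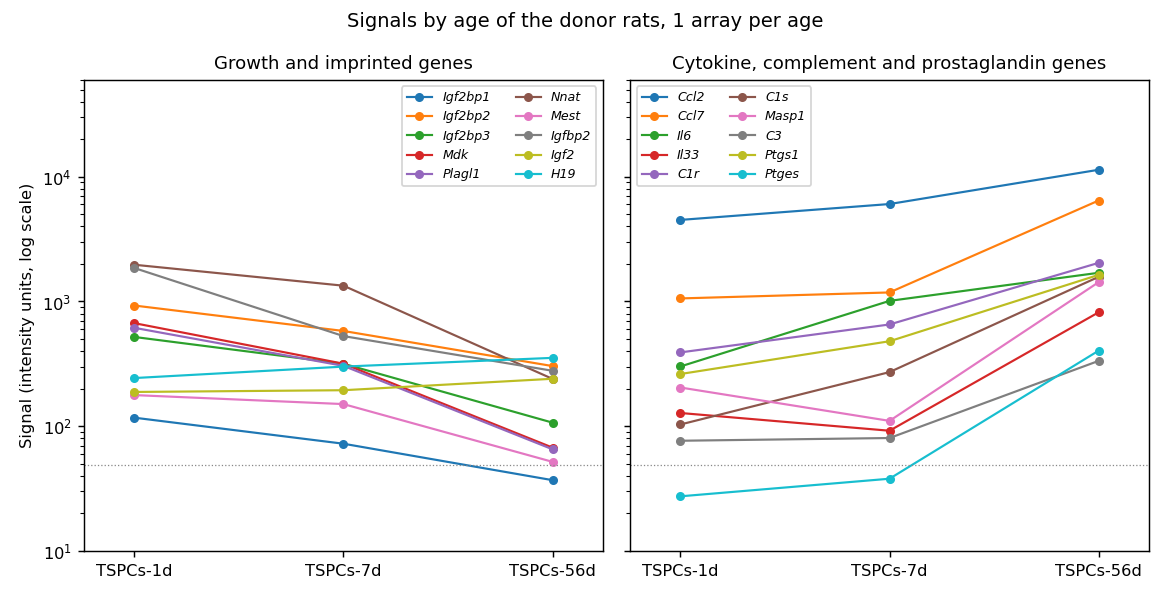
Signals in intensity units on a log scale (y axis) against age (x axis), 1 array per age, for growth and imprinted genes (left) and cytokine, complement and prostaglandin genes (right), with a dotted line at the dim level of 48.9. The IGF2 mRNA-binding proteins, *Mdk*, *Plagl1*, *Nnat*, *Mest* and *Igfbp2* are lower at each later age while *Igf2* and *H19* are not. The 10 genes on the right, all highest in TSPCs-56d, were picked as examples of that direction and do not stand for their lists. *Ccl5*, *Clu* and *Ptgs2*, whose signals were lower in the oldest cells, are not drawn.

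Factors that set position and lineage in the embryo mostly stayed within 2-fold, with a few genes far apart. Of 64 patterning factors outside the Hox family, 6 were lower and 2 higher, with a median log2 ratio of 0.02. *Alx1*, a homeobox gene of the embryonic face and limb mesenchyme, read 358, 29.2 and 18.3, at least 7.32-fold higher in TSPCs-1d, and was dim from TSPCs-7d onward. *Sim2* read 502, 361 and 146 (3.44-fold), *Foxf1* 285, 166 and 119.5 (2.38-fold) and *Mecom* 199, 489 and 69.7 (2.85-fold), highest in TSPCs-7d. *Irx3* read 747, 264 and 235 (3.18-fold), but this probe set is not specific to 1 transcript and the gene's other probe set ran upward (121, 127 and 216), so its direction is unsettled. *Osr2*, an odd-skipped factor of limb connective tissue, was higher at 128, 155 and 311 (2.43-fold). *Dach1*, a partner of the Eya proteins, read 467, 327 and 78.7 and was 5.94-fold higher in TSPCs-1d, beside *Eya1* above. Only 1 of 22 Hox genes passed 2-fold, *Hoxd10* (156, 176 and 71.3, 2.18-fold higher in TSPCs-1d). The Hox list as a whole leaned the other way, with a median log2 ratio of 0.24. In it, 17 genes (77.3%) had the higher signal in TSPCs-56d, against 57.9% of all genes. *Hoxa10* read 884 and 932. Among Sox and other lineage factors, *Sox11*, a factor of embryonic progenitors, was 2.40-fold lower in TSPCs-56d (293, 255 and 122). *Klf4* (271, 219 and 743, 2.74-fold), *Nfib* (237, 734 and 516, 2.18-fold) and *Zeb2* (372, 481 and 763, 2.05-fold) were higher. Of these 27 genes, 23 had the higher signal in TSPCs-56d, against 57.9% of all genes.

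**Figure D4:**
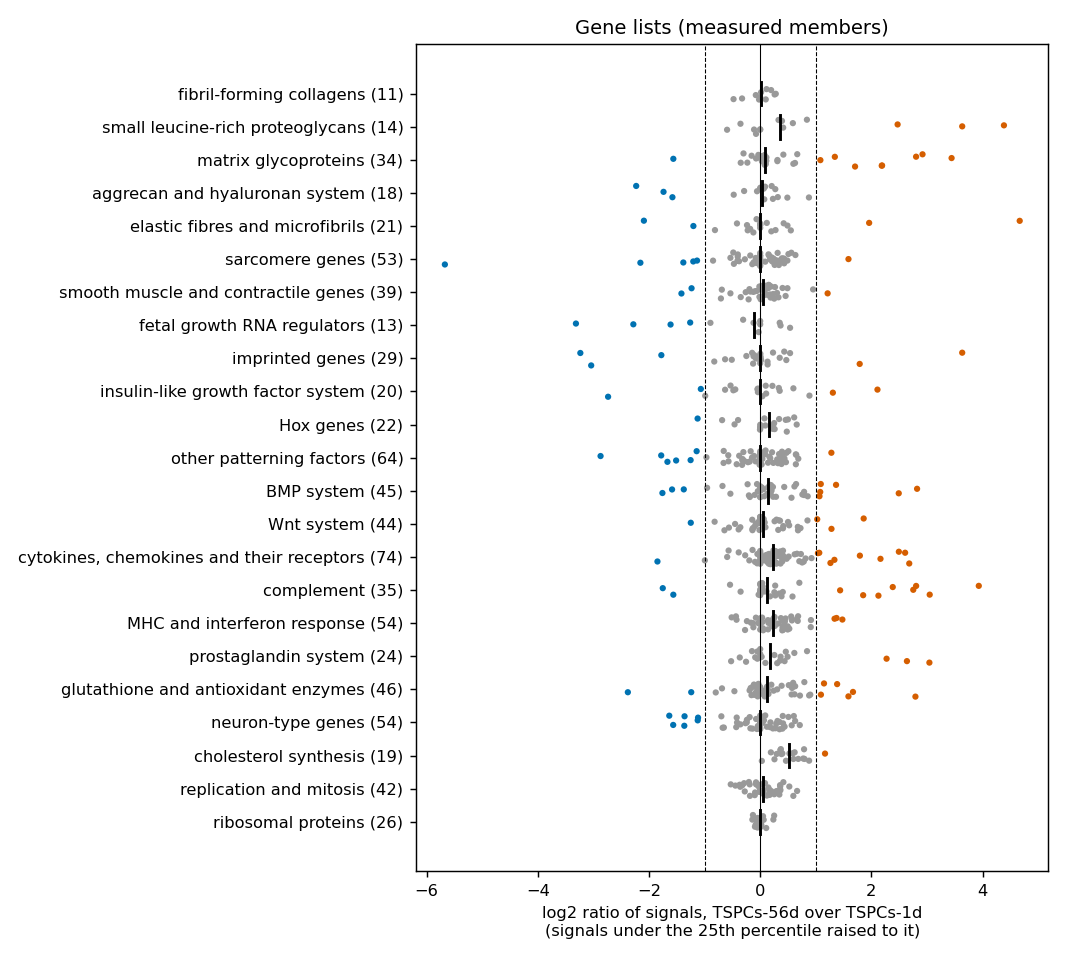
Each point is a measured member of a gene list, placed by its log2 ratio of signals (TSPCs-56d over TSPCs-1d, dim signals raised to the dim level); the number of members is in parentheses, black bars are medians, dashed lines mark 2-fold, and orange and blue points lie beyond them. Most medians lie near 0 with single genes far out, cholesterol synthesis is shifted as a whole, and ribosomal and replication genes stay within the dashed lines.

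The BMP system held 6 of 45 genes higher and 3 lower in TSPCs-56d, with ligands and antagonists on both sides. Over all genes these shares were 2.0% and 1.77%. In the list, 30 genes (66.7%) had the higher signal in TSPCs-56d, against 57.9% of all genes. Bone morphogenetic proteins (BMPs) drive bone and cartilage formation and are bound by secreted antagonists. *Bmp2* read 324, 172 and 125 (2.59-fold lower), with 296, 146 and 127 in its other probe set. *Bmp6* read 128, 250.2 and 718 (5.63-fold higher), though its 3 other, weaker probe sets gave log2 ratios from 0.02 to 1.11, and *Bmp3* read 85.4, 114 and 219.8 (2.58-fold higher). Of the antagonists, *Nog* (noggin) read 98.8, 107 and 699, 7.07-fold higher with all of the difference after TSPCs-7d, and *Fst* (follistatin) 261, 385 and 552 (2.11-fold). *Bmper* ran the other way (1168, 378 and 389, lower by a log2 ratio of -1.59). *Smad6*, the inhibitory signal transducer, read 264, 436 and 553 (2.09-fold), though its other probe sets differed by log2 ratios of 0.11 to 0.54. *Gdf15*, a stress-induced relative of the family, read 464, 123 and 137 (3.38-fold lower). In the TGF-beta system, *Lrrc32* (GARP), which holds latent TGF-beta at the cell surface, read 136, 289 and 1173 (8.62-fold), and it was the only member higher of 21, with *Tgif2* (332, 293 and 149) lower.

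Other signalling systems had fewer genes past 2-fold. In the Wnt system 4 of 44 genes were higher and 2 lower (3 and 1 with dim signals raised), against 2.0% and 1.77% of all genes. The list as a whole was close to all genes, since 25 (56.8%) had the higher signal in TSPCs-56d, against 57.9%. Higher were *Wnt4* (135, 95.7 and 489, 3.63-fold), the Wnt inhibitor *Wif1* (80.5, 96.5 and 196, 2.43-fold) and the Wnt target *Axin2* (86.7, 120.3 and 177, 2.04-fold). *Spry1*, a feedback inhibitor of FGF signalling, was 3.90-fold higher (151, 167 and 588), and *Fgf13* was 3.53-fold lower (214, 172 and 60.6). *Areg* (amphiregulin), a ligand of the EGF receptor, was 3.99-fold lower (236, 95.0 and 59.0), and *Vegfd* 2.36-fold lower (222, 58.7 and 93.7), whereas *Vegfa* read 1647 and 1991. None of the 29 Notch and hedgehog genes passed 2-fold. Among 17 semaphorins, guidance cues also used outside the nervous system, *Sema3d* was 3.41-fold lower (522, 379 and 153), and *Sema3c* (1078, 1879 and 2331) and *Sema3e* (273, 805 and 662) were 2.16-fold and 2.42-fold higher. Netrin *Ntn1* read 218, 284 and 607 (2.78-fold higher), but its weaker probe sets were level, at log2 ratios of 0.34 and -0.24.

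Receptors and regulators of G-protein signals were found on both sides. *Rgs4* (355, 53.1 and 51.9, 6.85-fold) and *Rgs2* (729, 367 and 196, 3.72-fold), which switch off G-protein signals, were higher in TSPCs-1d, and these were 2 of 16 RGS genes, against 1.77% of all genes. The list as a whole was close to all genes, since 9 of the 16 had the higher signal in TSPCs-56d, against 57.9%. The other probe set of *Rgs2* gave 500.5, 202 and 93.8, and that of *Rgs4* 106, 66.1 and 59.3. Receptors for lysophosphatidic acid were exchanged: *Lpar3* read 184, 139 and 43.0 (at least 3.76-fold lower in TSPCs-56d) and *Lpar1* 362, 652 and 755 (2.09-fold higher). The adenosine receptor *Adora2b* was 3.84-fold higher (59.9, 67.0 and 229.9), as was the vasoconstrictor peptide *Edn1* (endothelin 1; 146, 227 and 644, 4.42-fold). The calcium channel *Trpc6* was higher in TSPCs-1d (242, 67.3 and 23.9, at least 4.95-fold), whereas *Trpv2* (166, 139 and 542, 3.26-fold) and the L-type channel *Cacna1c* (105, 154 and 313, 2.99-fold) were higher in TSPCs-56d, the latter in its main probe set alone.

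Several inflammatory mediators were higher in TSPCs-56d. Of 74 cytokines, chemokines and their receptors, 9 were higher and 1 lower, the median log2 ratio was 0.28, and 61 (82.4%, against 57.9% of all genes) had the higher signal in TSPCs-56d. *Ccl7*, a monocyte-attracting chemokine, read 1058, 1182 and 6449 (6.09-fold), and *Ccl2*, which attracts the same cells, 4509, 6045 and 11379 (2.52-fold). *Ccl20* read 274, 195 and 948 (3.47-fold). The single gene lower was *Ccl5*, a chemokine for T cells (186, 60.6 and 51.7, 3.60-fold). Among the interleukins, *Il33*, a nuclear alarmin, read 128, 92.0 and 819 (6.42-fold) and 120.1, 92.8 and 712 in its other probe set. *Il6* read 301, 1011 and 1698 (5.64-fold), and *Il1a* 171, 157 and 767 (4.48-fold). The differences of *Ccl7*, *Ccl2*, *Ccl20*, *Il33* and *Il1a* lay mainly after TSPCs-7d, and those of *Ccl5* and *Il6* mainly before it. None of 11 CXC chemokines passed 2-fold, among them *Cxcl1* (3763 and 4957) and *Cxcl12* (2379 and 3952). *Csf1*, the growth factor of macrophages, was 2.40-fold higher (505, 617 and 1212), but its other 3 probe sets gave log2 ratios of 0.37 to 0.68.

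Components of the complement cascade, the plasma protease system that marks cells for clearance, formed the next list. Of 35 genes, 8 were higher and 3 lower in TSPCs-56d, 8 were dim in both arrays, and 27 (77.1%) had the higher signal in TSPCs-56d, against 57.9% of all genes, with a median log2 ratio of 0.31. The proteases that start the classical pathway were both higher, *C1s* at 103, 272 and 1576 (15.3-fold) and *C1r* at 391, 654 and 2040.2 (5.22-fold), and their inhibitor *Serping1* read 27.5, 35.3 and 177 (at least 3.61-fold). *Masp1*, a protease of the lectin pathway, read 204, 110.3 and 1428 (6.99-fold), but its 2 weaker probe sets gave log2 ratios of 0.40 and 0.92. The central component *C3* read 76.4, 80.4 and 334 (4.37-fold). *Cd55*, which protects cells from complement, read 234, 313 and 1579.9 (6.75-fold) and 90.9, 159 and 863 in its other probe set. *Clu* (clusterin), a chaperone that also inhibits complement, was 2.95-fold lower (812, 344 and 275). The list also holds C1q-related secreted proteins that are not complement factors, of which *C1qtnf7* was higher (49.8, 147 and 412, 8.28-fold) and *C1qtnf3* lower (305, 282 and 90.6, 3.37-fold). Of 54 genes of antigen presentation and the interferon response, 4 were higher and none lower, including *Ifit2* (483, 785 and 1220.1, 2.53-fold) and the immunoproteasome subunit *Psmb8* (67.8, 80.0 and 176, 2.59-fold). In that list 41 genes (75.9%) had the higher signal in TSPCs-56d, against 57.9% of all genes, with a median log2 ratio of 0.28. The classic interferon-induced genes *Isg15* (85.4 and 78.4) and *Mx1* (21.3 and 31.9, dim in both arrays) were not higher by 2-fold.

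Of 24 genes of the prostaglandin system, 3 were higher in TSPCs-56d and none was lower: the enzymes *Ptgs1* and *Ptges* and the transporter *Slco2a1*. In the list, 14 genes (58.3%) had the higher signal in TSPCs-56d, close to the 57.9% of all genes. *Ptgs1* (cyclooxygenase 1) read 262, 480.0 and 1634 (6.23-fold) and *Ptges*, the terminal prostaglandin E synthase, 27.4, 37.9 and 403 (at least 8.25-fold), with 92.9, 95.9 and 189 in its other probe set. *Ptgs2*, the inducible cyclooxygenase, was bright at both ages and not higher in TSPCs-56d (4059, 2869 and 3146). The prostaglandin transporter *Slco2a1* read 334, 1894 and 1616 (4.84-fold). *Hsd11b1*, the enzyme that turns inactive cortisone into active glucocorticoid, read 304, 694 and 4538 and was 14.9-fold higher in TSPCs-56d. *Arg1*, arginase 1 of the urea cycle and of alternatively activated macrophages, was 8.19-fold higher (346, 529 and 2835), and *Gda*, guanine deaminase, 9.31-fold higher (169, 218 and 1574).

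Of 46 antioxidant enzymes, 6 were higher and 2 lower in TSPCs-56d, the other 38 stayed within 2-fold, and 29 (63.0%) had the higher signal in TSPCs-56d, against 57.9% of all genes. *Gpx3*, the secreted glutathione peroxidase, read 316, 277 and 2189 (6.93-fold), *Sod3*, the extracellular superoxide dismutase, 1122, 1409.8 and 3372 (3.01-fold) and *Sod2*, the mitochondrial one, 1011, 1306 and 2156 (2.13-fold). *Selenop*, the selenium carrier protein, read 284, 419 and 740.2 (2.61-fold). Of these, *Gpx3*, *Sod3* and *Selenop* encode secreted proteins, and how many of the 46 enzymes are secreted was not counted. The glutathione transferases *Gsta4* (889, 195 and 171, 5.21-fold) and *Mgst3* (1196, 297 and 506, 2.36-fold) were higher in TSPCs-1d. Cholesterol synthesis genes differed little one by one but together. All 19 measured genes had the higher signal in TSPCs-56d (18 after division by the array medians), with a median log2 ratio of 0.53, the highest of the 65 lists. Only *Insig1*, a sensor of the pathway, passed 2-fold (244, 414 and 547, 2.24-fold), and for *Cyp51* (1023, 1546 and 1645) and *Msmo1* (811, 1217 and 1387) most of the difference was present in TSPCs-7d. The retinoic acid receptor *Rarb* was higher (67.4, 139 and 183, 2.71-fold) and the retinoic acid-binding protein *Crabp1* lower (1053, 915 and 478, 2.20-fold).

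Of 54 genes best known from neurons, 8 were lower in TSPCs-56d (1 dim in both arrays) and none was higher, with a median log2 ratio of -0.06. Over all genes 1.77% were lower and 2.0% higher. In the list, 24 genes (44.4%) had the higher signal in TSPCs-56d, against 57.9% of all genes. *Pcp4*, a calmodulin regulator of Purkinje cells, read 3475, 341 and 1174 (2.96-fold), lowest in TSPCs-7d. *Gria3*, a glutamate receptor subunit, read 328, 175 and 128 (2.57-fold), *Gfra1*, the GDNF receptor, 399, 189.8 and 183 (2.18-fold), and *Map2*, a dendritic microtubule protein, 154, 184 and 59.9 (2.58-fold). These are single genes at low to moderate signals apart from *Pcp4*. Of the adhesion molecules, 6 of 42 were lower (2 dim in both arrays) and 2 higher. The list as a whole was close to all genes, since 24 (57.1%) had the higher signal in TSPCs-56d. *Cdh2* (N-cadherin, the cadherin of mesenchymal cells) read 1083, 1022 and 450.4 (2.40-fold), *Cdh22* 801, 694 and 241 (3.33-fold) and *Pcdh18* 1077, 698 and 347 (3.10-fold). Another probe set of *Cdh2* gave 723 and 266, but a weaker one was level (107 and 116). The weak other probe set of *Cdh22* was nearly level (53.8 and 46.4). The integrin subunit *Itgb3*, a receptor for vitronectin and osteopontin, was the only integrin of 22 past 2-fold, higher at 173, 201 and 669 (3.87-fold). *Lama4*, a laminin chain of vessel and muscle basement membranes, was 2.25-fold higher (999, 1099 and 2245).

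Housekeeping and growth machinery mostly stayed within 2-fold. None of 42 replication and mitosis genes passed 2-fold, with a median log2 ratio of 0.05, and *Mki67* (324 and 344), *Top2a* (218 and 213) and *Cdk1* (1751 and 1663) were level between TSPCs-1d and TSPCs-56d, whereas in TSPCs-7d they read 1079, 579 and 3961. The cyclins *Ccnd1* (3237, 2979.8 and 1854) and *Ccnd2* (5927, 4452 and 3166) and the cell cycle inhibitor *Cdkn1a* (6336, 3818 and 3974) were lower in TSPCs-56d by less than 2-fold. The other probe set of *Cdkn1a* was just past the cutoff (3123, 1572 and 1542, 2.02-fold lower). None of 26 ribosomal protein genes passed 2-fold, with a median log2 ratio of -0.01, and 1 of 51 respiratory chain genes was higher and 1 lower. Markers of bone, cartilage and fat were mostly level. Of 20 bone genes, *Dmp1*, a mineralization protein, was lower (229.9, 75.1 and 69.1, 3.33-fold), and the 2 cartilage genes of 19 were *Acan* and *Hapln1* above. Of 37 fat and lipid uptake genes *Cebpd* was higher (414, 962 and 1576, 3.81-fold) and *Fabp4* lower and dim (70.6, 27.6 and 17.0). The other probe sets of *Cebpd* were 2.36-fold and 1.37-fold higher.

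The array of the intermediate age was used neither in the ratio nor in the cutoff, but the brightest probe set of each gene was picked over all 3 arrays. Of 263 genes higher in TSPCs-56d and not dim in both arrays, 215 had a TSPCs-7d signal between the other arrays or equal to 1 of them, 40 were lowest and 8 were highest in TSPCs-7d. On the log2 scale, 203 of them (77.2%) were nearer to TSPCs-1d, and the median place was 0.22 of the way from TSPCs-1d to TSPCs-56d. Of 219 genes higher in TSPCs-1d, 184 lay between, and 99 (45.2%) were nearer to TSPCs-1d, with a median place of 0.56. Thus *Lum*, *Nog*, *Il33*, *Gpx3* and *Masp1* were still at or below the newborn level in TSPCs-7d or close to it, whereas *PCOLCE2*, *Mmp3*, *Thbs4*, *Itgbl1* and *Slco2a1* were already near or above the adult level. On the newborn side, *Rgs4*, *Gsta4* and *Alx1* had come down by TSPCs-7d, whereas *Eya1*, *Acan* and *Hapln1* had not. These genes were chosen for a gap between the outer 2 ages, which by itself makes a TSPCs-7d signal between them likely. The same shares were not taken over all genes. By median signal (107.2, 108.3 and 114.5 in the order of age), the TSPCs-7d array was also nearer to TSPCs-1d in scale. The part of scale in these places was not tested. The difference between the 2 groups of genes was not tested either, since each age is 1 array.

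**Figure D5:**
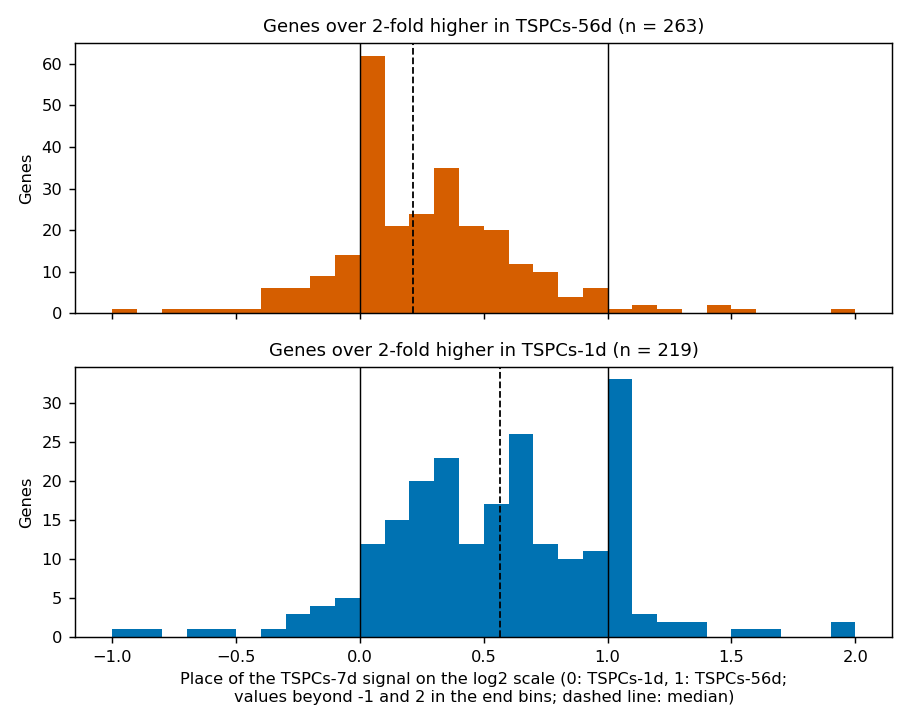
Histograms of the place of the TSPCs-7d signal between TSPCs-1d (0) and TSPCs-56d (1) on the log2 scale, with dim signals raised to the dim level, for the 263 genes higher in TSPCs-56d (top) and the 219 genes higher in TSPCs-1d (bottom); the y axis counts genes and the dashed line is the median. The upper median lies at 0.22 and the lower at 0.56, and the tall bars at 0 above and 1 below include genes at the dim level.

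The genes were also sorted by chromosome with the GRCr8 gene table. Of 445 X-linked genes, 18 (4.04%) were lower and 5 (1.12%) higher, against 1.69% and 2.03% of 13718 autosomal genes. *Tnmd*, *Col4a5*, *Gria3*, *Fgf13* and *Vegfd* above are among the 18, as is *Heph*, which encodes the copper enzyme hephaestin (451, 91.6 and 63.1, 7.15-fold). The sex of the animals is not given in the labels. Chosen after its values were seen, the Y-linked gene *Eif2s3y* read 266 in TSPCs-1d and was dim in TSPCs-7d (18.1) and TSPCs-56d (12.1), whereas the Y-linked *Uty* read 246, 315 and 353, and *Xist*, the RNA of the inactive X chromosome, 823, 2083 and 1159.5. The part of the animals' sex in these values was not tested. Without the genes of both sex chromosomes, 279 genes were higher and 232 lower.

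Other probe sets of the same genes mostly ran in the same direction, by any difference, but most of them did not pass 2-fold. Of 77 other probe sets of genes higher in TSPCs-56d that were not dim in both arrays, 72 ran in the same direction, 28 of them past 2-fold, and none was past 2-fold the other way. Of 104 of genes lower, 78 ran in the same direction, 38 of them past 2-fold, and 1 was past 2-fold the other way. Neighbouring genes were past 2-fold together in 2 places only, by a rule of at least 3 adjacent measured genes. On chromosome 10, *Nog*, *Pctp* (61.9, 90.4 and 137, 2.22-fold), a phosphatidylcholine transfer protein, and *Tmem100* (61.3, 55.1 and 335, 5.47-fold) were all higher in TSPCs-56d, although a weaker probe set of *Tmem100* gave 53.5 and 67.6. On chromosome 7, *Ccn3* lay between *Mal2*, which was dim in both arrays, and *Enpp2* (32.8, 56.1 and 77.0, at least 1.58-fold), the enzyme autotaxin that makes lysophosphatidic acid.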

How the data were processed

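RNA of cultured rat TSPCs was hybridized to Affymetrix Rat Genome 230 2.0 arrays, 1 per age, with no replicates. The authors deposited an intensity on a linear scale for each of 31042 probe sets. For the summary of probes, MAS5 together with RMA is named in their methods but only MAS5 in the processing notes, so the algorithm behind the values is not settled, and no probe-level data or detection calls were used. The methods and the labels also differ in the amount of RNA and the labelling kit.

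Ratios were taken of the signals as deposited. The platform table gave a single gene to 20826 probe sets, and 20758 of these matched the RefSeq table of GRCr8. The 14217 genes were each represented by the probe set with the highest mean signal. Genes were described through 65 lists, as the 40 highest and 40 lowest ratios among genes above the median signal, and as families and adjacent runs, without Y-linked genes and unnamed loci. The members and lists were chosen with earlier results of these data known. The precision is limited by the number of arrays, and no test was made. Alternatives changed the scaling, a floor or pseudocount, the cutoff and the choice of probe sets. The scripts were tested on simulated data. Python 3.11.15, numpy 2.4.6, pandas 2.3.3, statsmodels 0.14.6 and matplotlib 3.10.9 were used.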

Additional observations from a re-analysis of the deposited data

How the results depend on the processing

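The counts of 284 genes higher and 251 lower in TSPCs-56d depended on how dim signals were treated. With signals raised to at least the median of all signals they were 178 and 139, with a pseudocount of 32 they were 185 and 167, and among genes with a mean signal above the median 157 were lower. At cutoffs of 1.5-fold and 3-fold they were 1006 and 610, and 117 and 103, and over all probe sets in place of genes 473 and 558. Both counts stayed within 1.5 times after division by the array medians, quantile normalization, loess centring and a floor at the 25th percentile. The same held for the mean over a gene's probe sets, probe sets specific to 1 transcript, and leaving out both sex chromosomes (added after the data were seen). Which direction held more genes did change with the scaling. Higher and lower genes were 233 and 303 after division by the medians and 261 and 269 after quantile normalization. After loess centring they were 254 and 277. Of 223 named genes past 2-fold, 209 stayed past it in the same direction after division by the medians, 219 after quantile normalization and 178 with signals raised to the median. The log2 ratio of *Irx3* turned from -1.67 to 0.84 when probe sets shared between transcripts were left out, since another probe set then stood for the gene. No paired analysis was possible because each age was 1 array, and for the same reason no array could be left out.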

Other observations

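Several genes with large differences fall outside the groups above. Among genes higher in TSPCs-1d, *Fxyd6*, a regulator of the sodium pump, read 853, 349 and 67.0 in the order of age (12.7-fold). *Gas2*, an actin-binding protein of growth-arrested cells, read 321, 202 and 45.1 (at least 6.58-fold), *Septin4*, a filament-forming septin, 1004, 282 and 189 (5.30-fold), and *Birc2*, an inhibitor of apoptosis, 1873, 679 and 500.5 (3.74-fold). *Lrig1*, a brake on EGF receptor signals and a marker of quiescent stem cells in skin and gut, read 505, 307 and 114 (4.44-fold). These 5 genes were all lower at each later age.

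Among genes higher in TSPCs-56d, *Crip1*, a LIM domain protein, read 292, 537 and 2228 (7.63-fold), *Anxa8*, an annexin, 66.0, 118 and 444 (6.74-fold), and *Olr1*, the receptor for oxidized low-density lipoprotein, 35.4, 84.4 and 332 (at least 6.79-fold). *Tfpi2*, an inhibitor of serine proteases in the matrix, read 109, 160.3 and 673 (6.16-fold). *Rassf4* read 90.5, 246 and 443 (4.90-fold), and its other 2 probe sets ran the same way (62.8, 221 and 388, and 58.7, 128 and 295). *Rasl12*, a small GTPase, was level up to TSPCs-7d (170.1, 172 and 1099, 6.46-fold).

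The following families were chosen after their values were seen and are given as values only. Over all genes 2.0% were higher and 1.77% lower in TSPCs-56d. Of 17 cathepsins, the lysosomal proteases, 4 passed 2-fold with the higher signal in TSPCs-56d and none was lower: *Ctsk*, a collagen-degrading member, read 480.4, 762 and 1803 (3.75-fold), *Ctsz* 146, 160.2 and 502 (3.43-fold), *Ctsh* 2001, 1955 and 4018 (2.01-fold) and *Ctso* 41.4, 62.1 and 103 (at least 2.10-fold). Of 5 Toll-like receptors, *Tlr4* (72.3, 104 and 162, 2.24-fold) and *Tlr2* (40.1, 62.0 and 104, at least 2.14-fold) were higher, and the other 3 were dim in both arrays. Of 3 interferon-induced transmembrane proteins, *Ifitm3* (2005, 3047 and 4607, 2.30-fold) was higher, and *Ifitm1* (26.2, 30.3 and 91.7) was at least 1.88-fold higher.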
